A study of Rattus norvegicus with 6 samples.

Results

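The exons described here are cassette exons longer than 51 nt whose length is a multiple of 3. A cassette exon is an internal exon that one transcript of a gene includes and another skips, the skipping transcript joining the same outer splice sites with a single intron. An exon of this kind was taken from the exon lines of the deposited transcript assembly (rat build Rnor_5.0). The rule found 3268 of them among 6969 cassette exons, in 2355 genes. The other cassette exons were 2605 frame-shifting exons above 51 nt and 1096 microexons of 51 nt or less. Poly(A) RNA was sequenced from primary beta cells of the rat pancreas, which make and release insulin, sorted by flow cytometry in 3 batches. Cells of each batch received either a commercial non-targeting siRNA (control, 3 libraries) or an siRNA against Nova1 (knockdown, 3 libraries), at 30 nM for 16 h, and were collected after a further 48 h. The labels give neither the strain or age of the animals nor whether each batch had its own animals, so the spread behind each p-value is that of these 3 batches and may be technical.

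When a cassette exon whose length is a multiple of 3 lies within a coding sequence, its inclusion adds residues to the protein and leaves the reading frame after it intact. Skipping or including an exon of another length changes the frame and often brings in a premature stop. Nova1 is an RNA-binding protein, best known from neurons, that binds clusters of a short motif in pre-mRNA and raises or lowers the inclusion of nearby exons according to where it binds. The assembly marks no coding sequence, so which of these exons lie in coding sequence or in untranslated regions is not given here.

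Inclusion of an exon was the summed RPKM (reads per kilobase of transcript, scaled to the library total, as the authors estimated it for each transcript) of its including transcripts, as a percentage of including plus skipping transcripts. Libraries held between 95394043 and 292432076 assigned reads, and the control was the deeper library of each batch. Of 10 beta cell markers, 9 were at 1 RPKM or more (G6pc2 was below). Stellate and fibroblast markers (5 of 6 found, 3 at 1 RPKM or more, Pdgfra and Pdgfrb below) summed to between 6.43 and 13.2 RPKM in controls and between 16.3 and 20.5 RPKM in knockdown libraries, groups that did not overlap. Acinar markers (8 of 8 found) summed to 445, 309 and 149 RPKM in controls 1, 2 and 3 and 333, 261 and 110 RPKM in knockdown libraries, lower in the knockdown of each batch. Markers of other islet endocrine cells (8 of 8 found) summed to 5600, 14600 and 7930 RPKM in controls and 7450, 15900 and 10200 RPKM in knockdown libraries. Duct markers (5 of 5 found, Cftr, Muc1 and Sox9 below 1 RPKM) summed to 155, 115 and 134 RPKM against 200, 131 and 177 RPKM. Endocrine and duct sums were higher in the knockdown of each batch, with overlapping groups. Gcg, the glucagon gene of alpha cells, had a log2 difference of 0.34 (adjusted p = 0.16 in limma). In bulk RNA, fewer cells of a type and less RNA per cell cannot be told apart.

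Nova1, the targeted gene, had a summed level of 5.06, 2.83 and 2.03 RPKM in controls 1, 2 and 3 and 1.38, 2.38 and 1.81 RPKM in the knockdown libraries of the same batches. The knockdown library was the lower of each batch, but the groups overlapped, and the log2 difference of -0.73 (SE 0.38) had an adjusted p of 0.313 in limma. Without batch 1 the log2 difference was -0.20, and without batch 2 or 3 it was -0.98 or -1.02. As a share of assigned reads (CPM), Nova1 was at 19.4, 22.8 and 16.4 in controls and 7.43, 11.6 and 9.18 in knockdown libraries, which did not overlap. With voom in limma on those reads, an alternative added after seeing the data, the log2 difference was -1.06 with an adjusted p of 0.0526.

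The exons were small blocks of sequence. Their median size was 111 nt, or 37 residues, with quartiles of 81 and 156 nt and a range from 54 to 6711 nt, and 73.6% were no longer than 150 nt. The introns on either side had medians of 2212 nt upstream and 2123 nt downstream. Most genes held a single exon of this kind (1734 genes), while 435 held 2 and 186 held 3 or more, up to 7 in a gene. At the size limit, the 78 exons of 54 nt (48 tested) had a median inclusion of 47.9% in controls and 47.2% in knockdown libraries. The 83 exons of 51 nt just outside it (51 tested) had medians of 48.9% and 52.7%.

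Reference annotation covered both forms of only some exons. In 602 exons (18.4%) an including and a skipping transcript both matched a reference transcript, in 1379 (42.2%) only an including one did, in 646 (19.8%) only a skipping one, and in 641 (19.6%) neither. Median control inclusion of the tested exons in these classes was 55.7%, 71.5%, 32.7% and 50.3%. The form already annotated was the more abundant one in the typical exon with a single annotated form.

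To be tested, an exon needed a mean of at least 1 RPKM of including plus skipping transcripts and a minor form of at least 5% of that sum. Of the 3268 exons, 781 were below the level (21 of them listed at 0 in each library) and 544 had a minor form below the limit. This left 1943 exons (59.5%) in 1500 genes, of which 1937 had a value in all 6 libraries. Inclusion was intermediate in the typical tested exon. The median over exons was 59.7%, 59.5% and 60.2% in controls 1, 2 and 3 and 57.8%, 58.9% and 59.1% in the knockdown libraries. In control 1, 30.1% of exons were included at 80% or more and 20.8% at 20% or less. Frame-shifting exons had library medians between 62.4% and 66.9%, and microexons between 47.3% and 50%, given as a description with no test.

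Repeat libraries placed the same exon at rather different inclusion. The median SD between the 3 controls was 9.3 percentage points. It was 14.8 points for the 300 exons at 1 to 2 RPKM and 5.82 points for the 264 exons at 20 RPKM or more. Across exons, inclusion correlated between 2 controls at a Pearson r of 0.672 to 0.725 and between a control and a knockdown library at 0.651 to 0.723 (1937 exons, which share genes and transcripts, as a description). The median absolute difference between group means was 6.9 points, against 6.95 points for all cassette exons tested, and 40.5% of exons differed by less than 5 points.

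**Figure D1:**
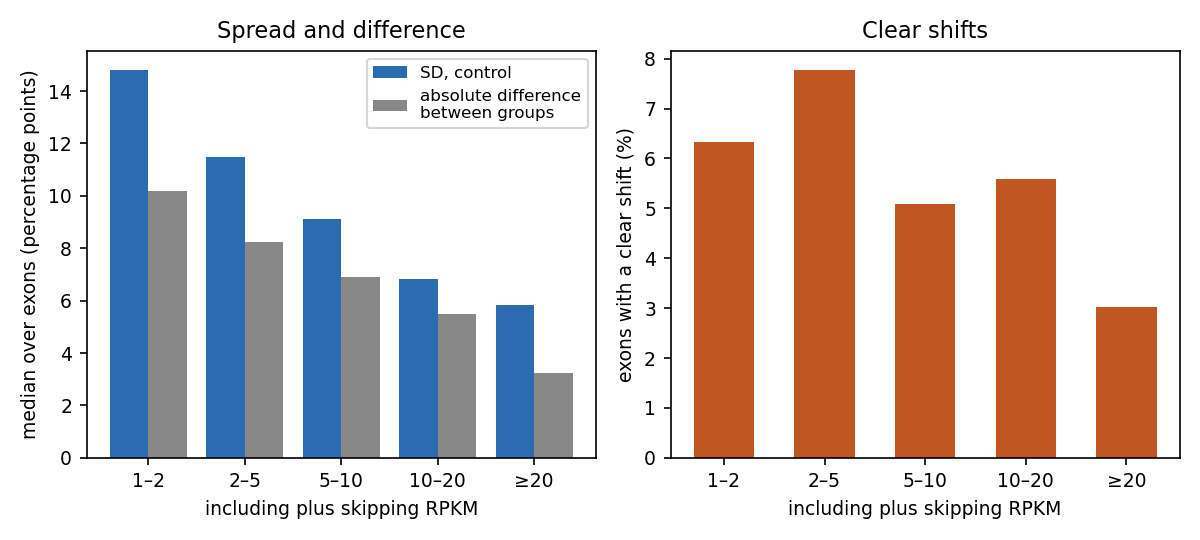
Bars on the left give the median SD between 3 control libraries and the median absolute difference between groups, in percentage points of inclusion, for tested exons binned by including plus skipping RPKM, and bars on the right give the percentage of exons with a clear shift. The control SD is 14.8 points in the lowest bin and 5.82 points in the highest, and it exceeds the difference between groups in each bin.

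No exon passed the test of inclusion between knockdown and control. In limma on the log2 ratio of including to skipping RPKM, with batch as a block, 0 of 1943 exons had an adjusted p under 0.05, and 0.00% of the 4215 cassette exons of all kinds did. At an unadjusted p under 0.05 there were 80 exons (4.12%; 43 higher and 37 lower in knockdown), close to the 4.22% of all cassette exons. The smallest adjusted p was 0.324, for an exon of Itga3, and the next was 0.896.

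A count of separated groups gave the same picture. An exon had a clear shift when all 3 knockdown libraries lay above, or all below, all 3 controls and the means differed by 10 points or more, a description with no p-value. There were 52 exons higher in knockdown (2.68%) and 61 lower (3.15%), in 106 genes, against 3.02% higher and 3.43% lower among the 4200 cassette exons with 6 values. Both shares are near those of cassette exons in general, of which 6.45% had a clear shift in either direction. With libraries paired by batch, 123 exons (6.35%) were higher and 157 (8.11%) lower in the knockdown of all 3 batches by a mean of 10 points or more, against 6.71% and 8.12% of all cassette exons. Of the 113 exons with a clear shift, 45 had an unadjusted p under 0.05 in limma. The shift and the p-value come from the same 6 values, so this count is no separate support.

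**Figure D2:**
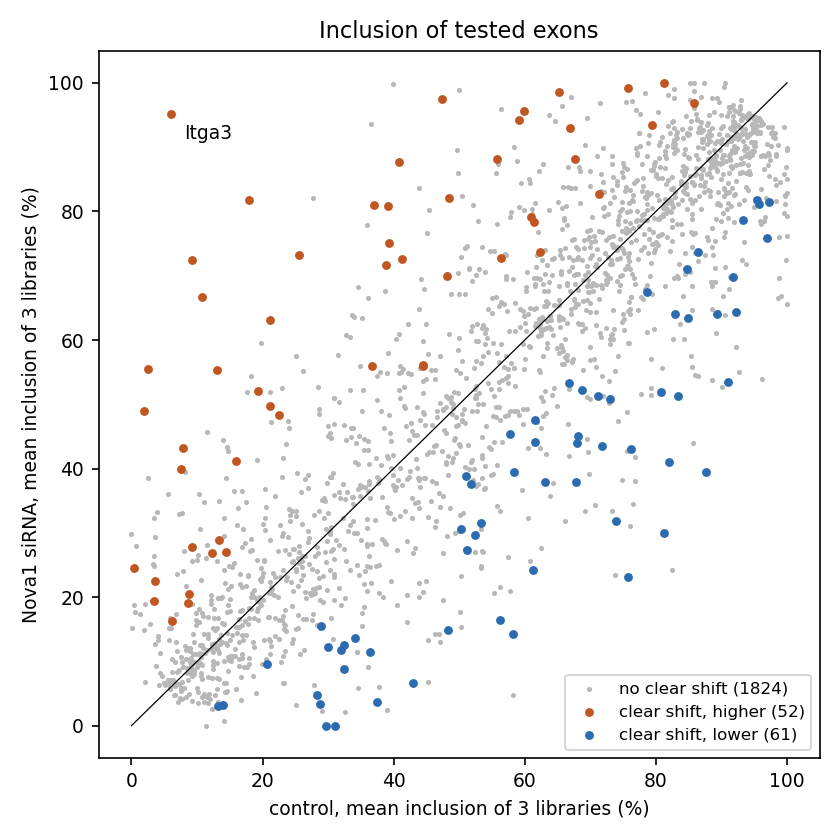
Each point is a tested exon, with mean inclusion (%) of 3 control libraries on the x axis and of 3 knockdown libraries on the y axis. Most points lie around the line of equal inclusion, 52 exons with a clear shift lie above it and 61 below, and the Itga3 exon is at the top left.

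A 141 nt exon of Itga3 stood farthest from the line. Itga3 encodes the alpha-3 subunit of a laminin-binding integrin, a protein with alternative cytoplasmic tails made by splicing near the 3′ end of its transcript. The exon lies at chr10:82668800-82668940 on the minus strand and is exon 26 of 27. Other reference-matching transcripts of the gene end at position 82668830, inside the exon. Whether its inclusion adds 47 residues is therefore not given here. Those transcripts were at 0 RPKM in controls and at most 2.91 RPKM in knockdown libraries, and count in neither form. Its inclusion was 5.85%, 6.10% and 6.32% in controls 1, 2 and 3 and 94.6%, 96.1% and 95.1% in knockdown libraries. The groups were far apart with almost no spread within them, a difference of 89.1 points. The log2 ratio of including to skipping RPKM was higher by 8.11 (SE 0.48) in knockdown than in control.

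The Itga3 values come from a near exchange of 2 transcripts. The main including transcript, which matches no reference transcript, was at 1.22, 2.78 and 0.555 RPKM in controls and 23.8, 40.2 and 20.4 RPKM in knockdown libraries. The main skipping transcript, a reference match, was at 28.5, 46 and 18.6 RPKM in controls and 1.41, 1.71 and 1.09 RPKM in knockdown libraries. The level of the gene as a whole hardly differed, with a log2 difference of -0.005 in summed RPKM (adjusted p = 0.971 in limma). These transcripts hold 27 and 25 exons and share their 3′ end, and the intron after the exon is the last intron. They differ in the first intron as well as around the exon, so their RPKM does not measure this exon alone. Stellate and fibroblast markers also separated the groups, acinar markers were lower and endocrine and duct markers higher in each batch's knockdown, and their part in this result was not tested.

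Whether the Itga3 exon passed the threshold depended on the model. It missed it with batch as a block (adjusted p = 0.324 in limma) and passed it without the block (adjusted p = 0.00677), the only call among all 4215 exons under that setting. Combinations added after seeing the data did not settle it. Without the block, the adjusted p in limma was 0.00753 with plain empirical Bayes, 0.102 with inclusion in percent, and 0.76, 0.483 and 0.461 with batch 1, 2 or 3 left out.

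The other genes described among the 10 largest clear shifts towards inclusion had more variable values. Rptor encodes Raptor, the scaffold of the mTORC1 kinase complex, and its 159 nt exon was included at 71.7%, 9.31% and 61.2% in controls and 100%, 92.6% and 100% in knockdown libraries. Control 2 was far below the other controls there. Knockdown 1 of Rptor rested on only 0.859 RPKM of including and 0 RPKM of skipping transcripts. Gon4l, a nuclear corepressor gene, had a 144 nt exon at 41.6%, 4.67% and 7.69% in controls and 98.6%, 46.6% and 100% in knockdown libraries. Nsmce2 encodes a SUMO ligase of the SMC5/6 complex, and its 78 nt exon was at 42.7%, 17.9% and 16.1% against 81.2%, 48.03% and 90.5%. The groups of Gon4l and Nsmce2 were separated by a narrow gap, and each of the 3 exons had an adjusted p of 0.896 in limma. Exons of Adissp, Utp14a, Scai, Mmd2 and Tirap were also among them, with between 204 and 905 estimated reads for both forms in the thinnest library.

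Among the 10 largest clear shifts towards skipping, some held tight values in a group. Dhx57, a DEAH-box helicase gene, had a 159 nt exon at 86.5%, 64.4% and 92.7% in controls and 27.2%, 33.3% and 29.4% in knockdown libraries. Fbxl19, an F-box protein gene, had a 162 nt exon at 84.5%, 90.6% and 88.02% in controls and 42.8%, 20.7% and 54.9% in knockdown libraries. Both pairs of groups were far apart, but including plus skipping transcripts averaged only 2.48 RPKM for Dhx57 and 2.61 RPKM for Fbxl19. The Fbxl19 gene as a whole was at 2.05 RPKM in controls and 3.20 RPKM in knockdown libraries (adjusted p = 0.11 in limma). Its main including and skipping transcripts also differ in the first intron. Zmynd11 encodes a reader of methylated histone H3.3, and its 162 nt exon was at 83.6%, 75.2% and 87.03% in controls and 52.3%, 48.9% and 21.7% in knockdown libraries. Med1 encodes a Mediator subunit that contacts nuclear receptors, and its 2979 nt exon was at 53.4%, 62.9% and 58.4% in controls and 3.38%, 0% and 39.4% in knockdown libraries. Galnt2 encodes an enzyme that starts mucin-type O-glycosylation, and its 93 nt exon was at 56.9%, 60.7% and 11.04% in controls and 3.26%, 9.36% and 7.37% in knockdown libraries. Control 3 of Galnt2 lay beside the knockdown values. The rest were exons of Hmgcll1, Fam120b, Pggt1b, Armh1 and Ttll5, and all 10 had an adjusted p of 0.896 in limma.

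**Figure D3:**
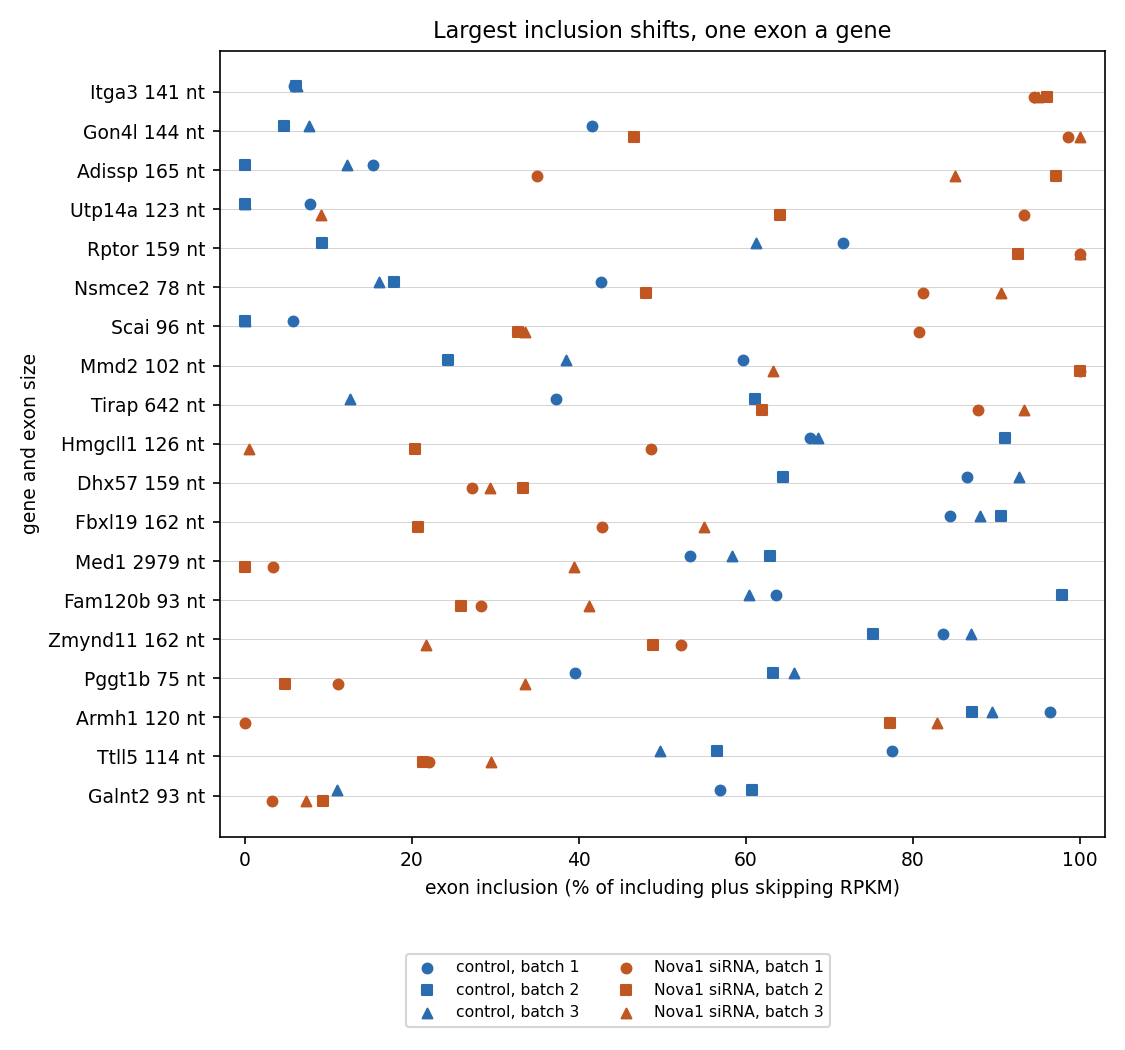
Each row is an exon, named by gene and size, and each point is the inclusion (%) in a library, blue for control and orange for Nova1 siRNA, with the marker shape giving the batch. The Itga3 points form 2 tight groups at about opposite ends of the axis, while most other rows show a wide spread within at least 1 group.

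Among the 604 exons at 10 RPKM or more, where replicate spread was smaller, 27 (4.47%) had a clear shift, 12 higher and 15 lower in knockdown. Of all cassette exons at that level, 5.14% had one. The following were chosen after their values were seen, for the small spread within groups. Cryzl1, a quinone oxidoreductase-like gene, had a 72 nt exon at 97.5%, 97.5% and 96.96% in controls and 82.7%, 80.2% and 81.7% in knockdown libraries. Trim37, a ubiquitin ligase gene, had a 123 nt exon at 55.5%, 58.5% and 55.03% in controls and 70.3%, 73.7% and 74.1% in knockdown libraries. Sort1 encodes sortilin, a sorting receptor of the Golgi and endosomes, and its 99 nt exon was at 30.2%, 33.3% and 23.3% in controls and 15.6%, 15.97% and 15.06% in knockdown libraries. These groups were separated, by amounts much smaller than in Itga3.

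Cln3 encodes a lysosomal membrane protein, and its 141 nt exon was at 97.5%, 91.8% and 86.2% in controls and 72.6%, 69.6% and 67.2% in knockdown libraries. Golga4 encodes a golgin of the trans-Golgi network, and its 84 nt exon was at 98.7%, 92.04% and 95.4% in controls and 86.4%, 80.5% and 78.7% in knockdown libraries. The unadjusted p in limma was 0.0147 for Cryzl1, 0.0902 for Trim37, 0.0789 for Sort1, 0.0208 for Cln3 and 0.0264 for Golga4, and none passed the threshold after adjustment.

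**Figure D4:**
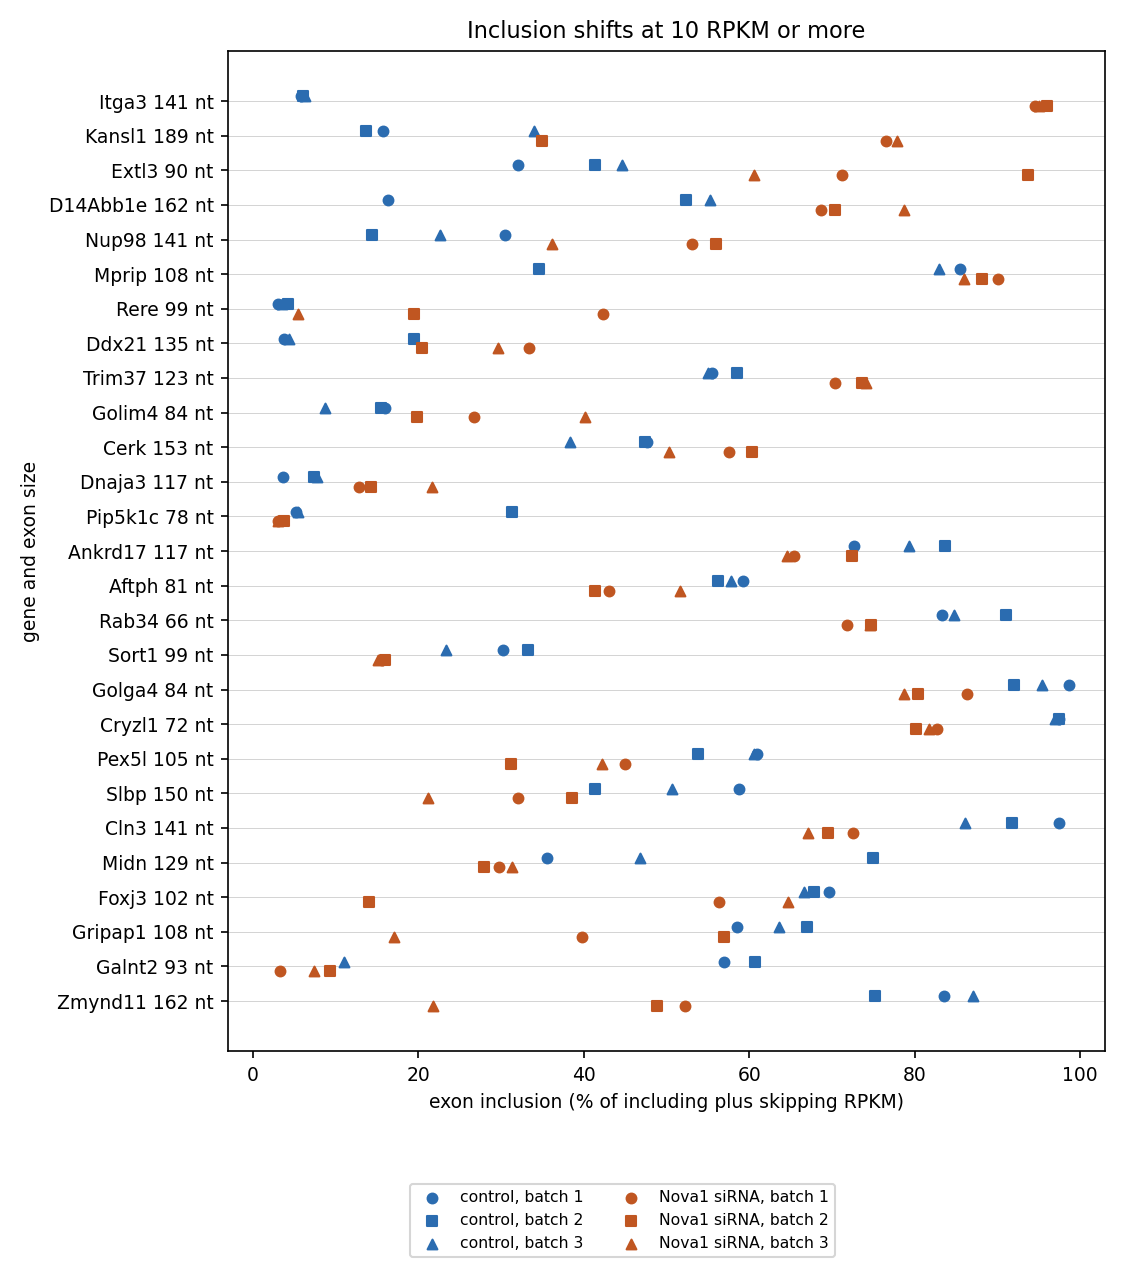
Each row is 1 of the 27 exons at 10 RPKM or more with a clear shift, with inclusion (%) on the x axis, control libraries in blue, Nova1 siRNA libraries in orange and marker shape for the batch. Cryzl1, Trim37 and Itga3 show narrow, separated groups, and Galnt2, Mprip and Pip5k1c each have a control far from the other 2.

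The exons in the most abundant transcripts, with control inclusion between 20% and 80%, showed no clear shift. Pam encodes the enzyme that amidates peptide hormones in secretory granules, and its 204 nt exon was at 42.7%, 40.05% and 27.6% in controls and 27.5%, 30.4% and 27.1% in knockdown libraries. Sqstm1 encodes the autophagy receptor p62, and its 81 nt exon was at 75.5%, 68.9% and 64.4% against 71.1%, 67.7% and 66.9%. Scgn encodes secretagogin, a calcium-binding protein of beta cells. Its 60 nt exon was at 57.2%, 56.9% and 57.2% in controls and 55.96%, 59.1% and 57.4% in knockdown libraries. A second exon of Scgn, of 93 nt, shared most of those transcripts and had control and knockdown means of 61.6% ± 0.219 and 62.2% ± 1.69 (SD, n = 3). The control values of Scgn were the most repeatable among these 10 exons, and the groups overlapped.

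App encodes the amyloid precursor protein, known for tissue-specific alternative exons. Its 54 nt exon was at 45.06%, 51.7% and 50.1% in controls and 48.6%, 48.7% and 48.3% in knockdown libraries. Its 57 nt exon was at 43.8%, 43.9% and 41.4% against 45.97%, 43.8% and 45.7%. The groups overlapped for both. Exons of Rab1, Grn, Ganab and Tspan13 differed by between -8.35 and 4.70 points, with adjusted p-values from 0.919 to 0.995 in limma.

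**Figure D5:**
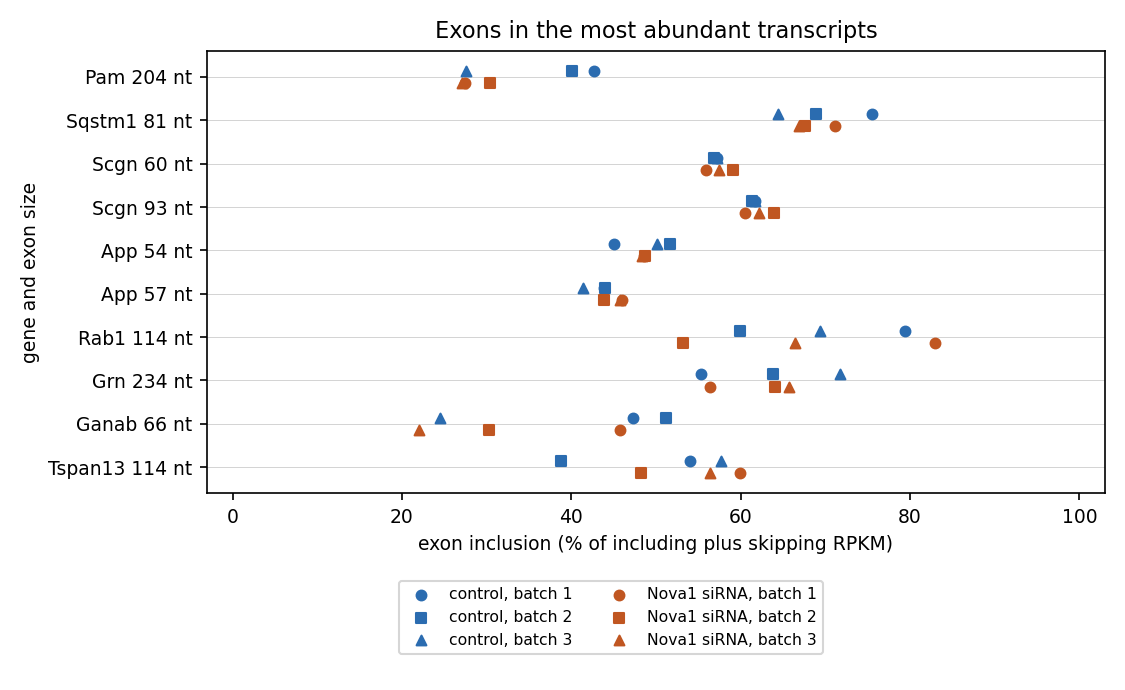
Each row is an exon in a highly abundant pair of forms, with inclusion (%) on the x axis, control libraries in blue, Nova1 siRNA libraries in orange and marker shape for the batch. Control and knockdown points overlap in each row, and the 2 exons of Scgn have the narrowest control spread.

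The counts of the gene lists that follow stand beside the shares over all cassette exons given above, 4.22% at an unadjusted p under 0.05 in limma and 6.45% with a clear shift. Genes known as Nova targets in brain held 65 tested exons of this kind, of which 0 passed the test in limma (1 at an unadjusted p under 0.05), 0 had a clear shift up and 1 down. Their median difference was 0.162 points. This list includes Nova1, the siRNA target, and the exon at an unadjusted p under 0.05 in limma was its 102 nt exon. The shifted exon, of 177 nt, was in Lrp8, a reelin receptor gene, at 11.1%, 59.4% and 14.4% in controls and 5.98%, 1.15% and 7.11% in knockdown libraries. Control 2 carried that difference. Rims2, an active-zone scaffold gene that is also on the secretion list, had a 66 nt exon at 78.4%, 72.2% and 76.2% in controls and 37.1%, 16.04% and 75% in knockdown libraries, where knockdown 3 lay among the controls. None of the 20 tested exons of the secretion and exocytosis list had a clear shift, and 0 passed the test or had an unadjusted p under 0.05 in limma. On that list, a 57 nt exon of Unc13a, a vesicle-priming gene, was at 43.4%, 1.77% and 97.2% in controls and 1.47%, 16.8% and 40.1% in knockdown libraries, and so varied more within than between groups.

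Ion channels and transporters held 40 tested exons, with 0 calls in limma (3 at an unadjusted p under 0.05) and 1 clear shift down. That shift was in a 171 nt exon of Atp2b2, a plasma membrane calcium pump gene, at 1.21%, 79.5% and 12.4% in controls and listed at 0 in each knockdown library. Cacna1c encodes a pore subunit of L-type calcium channels, which carry calcium into beta cells. It had 7 exons of this kind, 5 of them tested and none with a clear shift. Its 84 nt exon was at 93.05%, 97.2% and 47.5% in controls and 61.2%, 88.6% and 4.62% in knockdown libraries, lower in the knockdown of each batch, with overlapping groups and an unadjusted p of 0.0145 in limma. 2210018M11Rik and Abcc1, an exporter of conjugated organic anions, also held 7 such exons, with 5 and 4 tested and no clear shift.

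RNA-binding splicing regulators held 27 tested exons, with 0 calls in limma (1 at an unadjusted p under 0.05) and a clear shift in 1 up and 1 down. The exon shifted down was a 69 nt exon of Tial1, which encodes an RNA-binding protein of stress granules, at 56.9%, 42.6% and 45.4% in controls and 0%, 40.06% and 4.51% in knockdown libraries. Its including plus skipping transcripts averaged 1.58 RPKM, in a gene at 18.1 RPKM in controls, with 115 estimated reads in the thinnest library. Nova1 has 2 tested exons of its own. Its 102 nt exon was at 27.2%, 1.44% and 1.82% in controls and 44.1%, 15.04% and 20.5% in knockdown libraries, higher in the knockdown of each batch, with overlapping groups and an unadjusted p of 0.031 in limma. Its 72 nt exon was at 99.1%, 100% and 62.7% in controls and 100% in each knockdown library. The 102 nt exon of Nova1 is the exon counted at an unadjusted p under 0.05 in limma on this list. It is also the one counted among Nova targets in brain.

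Adhesion and cytoskeleton genes held 88 tested exons, with 0 calls in limma (2 at an unadjusted p under 0.05) and 2 clear shifts up, that of Itga3 among them, beside the same 4.22% and 6.45% of all cassette exons. A 240 nt exon of Tjp1, which encodes the tight junction protein ZO-1, was at 98.05%, 98.95% and 99.5% in controls and 99.1%, 85.8% and 24% in knockdown libraries, with knockdown 3 apart. Insulin, PI3K and kinase signalling held 37 tested exons, 0 calls (3 at an unadjusted p under 0.05), and clear shifts in 2 up and 2 down. Prkce encodes protein kinase C epsilon, and its 189 nt exon was at 43.2%, 35.4% and 38.04% in controls and 57.97%, 85.3% and 71.9% in knockdown libraries. Ppp1r12a encodes the targeting subunit of myosin phosphatase, and its 180 nt exon was at 75.8%, 78.5% and 74.4% in controls and 23.6%, 40.6% and 64.8% in knockdown libraries. The controls of both exons were close together and the knockdown libraries were not.

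Golgi, endosome and vesicle traffic genes held 51 tested exons, 0 calls in limma (1 at an unadjusted p under 0.05) and 2 clear shifts down. A 69 nt exon of Sec24c, a COPII coat gene, was at 10.6%, 1.57% and 12.4% in controls and 9.84%, 96.6% and 12.2% in knockdown libraries, so knockdown 2 alone made its difference. Transcription and chromatin genes held 76 tested exons, 0 calls (2 at an unadjusted p under 0.05) and 2 clear shifts in each direction, that of Zmynd11 among those down. The cell death list held 7 tested exons, with 0 calls, 0 at an unadjusted p under 0.05 and no clear shift. Bcl2l11 encodes the pro-apoptotic BH3 protein Bim, and its 90 nt exon was at 15.2%, 15.8% and 69.6% in controls and 95.1%, 26.7% and 12.8% in knockdown libraries. It was high in 1 control and in 1 knockdown library, of different batches. Median differences of the 9 lists lay between -3.07 and 2.65 points, beside -0.204 points for all cassette exons tested.

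Inclusion here is read from whole transcripts. In 628 of the 1943 tested exons (32.3%) the most abundant including and skipping transcripts differed in no introns but those around the exon. Start and end positions of the transcripts did not enter this class and may differ. In the others further introns differed too, so more than the exon enters the value. These were classed by whether the first intron differed (551), the last (199), both (275) or neither (290). The exon's own introns were part of that comparison. An exon next to the first or last exon can therefore count as an end difference without another start or end site. Of the exons with a clear shift, 34 of 113 (30.1%) had no other intron difference, and the part of the other differences was not tested.

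The genes that hold these exons were compared in total level as well. In limma on log2 summed RPKM with the batch block, 0 of 1500 host genes passed the threshold, as did 0.00% of all 11934 genes. At an unadjusted p under 0.05 there were 400 host genes (26.7%), against 22.4% of all genes, and voom on estimated reads, added after seeing the data, also called 0 host genes and 0.00% of all genes. At an unadjusted p under 0.05 it had 609 host genes (40.6%), against 29.8% of all genes. The median log2 difference was 0.11 for host genes and 0.04 for all genes. Among the 106 genes with a clear inclusion shift, 22 had an unadjusted p under 0.05 for level in limma with the batch block. In level, 86 of them differed by less than 0.3 on the log2 scale, a limit for which no share over all genes was computed.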

How the data were processed

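TopHat placed reads on the build Rnor_5.0, according to the submitters' processing notes. The authors deposited an assembly and, for each library, the estimated reads, length and RPKM of each transcript, as text. The program that divided reads among transcripts is not given in the sources used here. The members, gene lists and tests were chosen with earlier results of these data known.

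Including and skipping transcripts were pooled over all flanking splice sites of an exon. The log2 ratio of including to skipping RPKM (0.1 RPKM added to each) was fitted in limma 3.58.1 (R 4.3.3) with batch as a block, a trended robust prior and Benjamini-Hochberg adjustment over all 4215 cassette exons, with 2 residual degrees of freedom. The fit was tested on simulated data. A clear shift needed values in all 6 libraries. Gene level used log2(RPKM + 0.1) at 1 RPKM or more.

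The design text says that each batch was examined under both conditions, so batch numbers pair the libraries. Deviations of inclusion from the group mean correlated at 0.034, 0.099 and 0.044 within batches 1, 2 and 3. Between a control and a knockdown library of different batches the correlation lay between -0.070 and 0.030. The values within batches were thus small, and that of batch 1 was close to the highest value between batches.

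Named exons were any called, the 10 largest clear shifts each way (1 a gene), up to 4 per list by size of difference, the 10 of highest RPKM with control inclusion of 20% to 80%, genes with the most members, Itga3 and Nova1. Some exons this rule takes are not reported here. Others are said to be chosen after seeing values. Alternatives added after seeing the data were voom at gene level and 5 fits that pair no block with another change. The comparison of leading transcripts, the bins of RPKM and the limit of 10 RPKM were also chosen after seeing the data. Gene symbols for identifier-only models came from a RefSeq table, by synonym. Depth is given as assigned reads, and no genome was used.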

Additional observations from a re-analysis of the deposited data

How the results depend on the processing

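Calls of inclusion numbered 0 in limma with batch as a replicate block and under each single change of setting except no replicate block, which gave 1 (Itga3). Of 5 fits without the block added after seeing the data, that with plain empirical Bayes also gave 1 and the other 4 gave 0. The adjusted p for Itga3 ranged from 0.00677 to 0.953. Clear shifts (52 up, 61 down) numbered 32 and 37 at 20 points or more, 25 and 28 at a summed level of at least 5 RPKM, and 123 and 157 when paired within batches (replicate block). Leaving out each batch in turn gave 183 to 186 up and 201 to 214 down, since 2 libraries a group separate more easily than 3. Median control inclusion, 58.9%, was 58.6% at 5 RPKM or more, 59.8% from estimated reads, 64.2% with no filter on the minor form, and between 58.1% and 59.6% with a batch left out. Calls of host genes stayed at 0 under all alternatives run. The Nova1 log2 difference was -0.20 without batch 1. Precision is limited by low RPKM and by 3 libraries a group.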
